A study of Mus musculus with 8 samples.

Results

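The nuclear-encoded subunits of mitochondrial oxidative phosphorylation were compared between spleens of TTPΔARE and wild-type mice. Members were taken by gene symbol: the Nduf subunits of complex I, Sdha to Sdhd of complex II, the Uqcr genes of complex III, the Cox4 to Cox8 genes with a letter a to c of complex IV and the Atp5 genes of complex V. The rule matched 92 transcripts of 81 symbols among 17738 symbols in all, and each symbol was represented by its transcript of the highest mean. Complex I had 37 members, complex II 4, complex III 8, complex IV 15 and complex V 17. The 78 with an average of 0.5 FPKM or more across the 8 spleens were tested, and the 3 below that were Cox7a1, Cox8b and Cox8c. FPKM is the number of sequenced fragments scaled to transcript length and to library depth.

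The 8 spleens came from untreated C57BL/6 males aged 8 to 12 weeks, 4 wild-type and 4 carrying TTPΔARE, a deletion of the AU-rich element within the untranslated 3′ end (3′ UTR) of the Zfp36 mRNA. Zfp36 encodes tristetraprolin (TTP), which binds AU-rich elements of mRNAs and promotes their decay. The sources used here give no zygosity, litter or batch, and the allele is present in all cells of the animal rather than in a chosen cell type. Whole spleen mixes lymphocytes, macrophages, stroma and, in the mouse, developing red cells, so a smaller share of a cell type and less RNA per cell cannot be told apart.

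Oxidative phosphorylation passes electrons from NADH (through complex I) and succinate (through complex II) to ubiquinone, then by complex III and cytochrome c to complex IV, which reduces oxygen. Complexes I, III and IV pump protons across the inner mitochondrial membrane, and complex V, the ATP synthase, uses the gradient to make ATP. Most subunits are encoded in the nucleus and a few, including the core of the proton pumps, in mitochondrial DNA. Nuclear subunit genes are known for promoters with sites of the factors NRF1 and GABP, an ETS-family protein.

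Promoter windows from RefSeq (GRCm38.p6, 250 bases before to 50 after a gene's start) were matched for 66 of the 78 tested members, in 72 windows. The letters GCATGCGC, the core of the NRF1 motif, stood on either strand in 10 of the 72 windows, 13.9%, against 2.71% of all 32851 windows of that length. CCGGAAG, the core of the ETS motif, stood in 22.2% of member windows against 8.86% of all, AAGATGGC, a core of the YY1 motif, in 16.7% against 2.75%, and the shorter CCAAT in 41.7% against 37.4%. The 32851 windows were not limited to genes tested in these spleens, whereas the member windows were, and windows of genes of like expression were not compared. A match is only a description of the letters. The NRF1 core of 1 member of each complex is shown in capitals as an example of these motifs. Of the 66 matched members 10 hold it and 16 hold the ETS core, and both cores occur in all 5 complexes. The stretches lie at chr2:36049329-36049356 on the minus strand for Ndufa8, chr4:140961207-140961234 on the plus strand for Sdhb, chr9:108936670-108936697 on the plus strand for Uqcrc1, chr5:115349101-115349128 on the minus strand for Cox6a1 and chr15:102671070-102671097 on the minus strand for Atp5g2 (GRCm38).
Ndufa8: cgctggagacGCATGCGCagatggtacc
Sdhb: agcccagtggGCATGCGCcctacgggcc
Uqcrc1: tccgctctgcGCATGCGCagcgcggctc
Cox6a1: ggaacggggcGCATGCGCgctctcgctc
Atp5g2: ctccggccgcGCATGCGCagagccttcc

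The step size of low values gave an estimated 28.4 to 32.3 M fragments per spleen. Zfp36 itself, the gene that carries the allele, stood at 36.4 to 44.9 FPKM in wild-type and 46.1 to 57.5 FPKM in TTPΔARE spleens. Erythroid markers were higher in TTPΔARE spleens: all 24 tested had a positive log2 value and 7 passed, and their summed level was 6165 to 11382 FPKM in wild-type and 14764 to 22608 FPKM in TTPΔARE. The 10 B cell markers summed to 1166 to 1254 FPKM in wild-type and 1019 to 1103 FPKM in TTPΔARE spleens. Of these, 9 had a negative log2 value and 1, Cr2, a positive one (0.31), and 2 passed by limma, both lower. No listed marker of either type was at 0 in all spleens.

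The library of wild-type replicate 1 stood apart for the members. It held the highest value of 51 of the 78 tested members and the lowest of 1, and 69 of 78 were above their mean over the 8 spleens there. The members' median deviation from that mean was 0.178 on the log2 scale in wild-type replicate 1, and it lay between -0.095 and 0.051 in the other 7 spleens. Subunit transcripts are short, with a median of 760.5 bases against 2860 for all tested transcripts, and 43.6% of them against 2.45% are under 700 bases. Other transcripts under 700 bases, 364 of them, deviated by 0.190 in wild-type replicate 1, and 7624 others of 3000 bases and over by -0.055. The members' shift was above that of other transcripts of like length: 0.235 for the 34 members under 700 bases, 0.191 against 0.104 from 700 to under 1500 bases, and 0.123 against 0.023 from 1500 to under 3000 bases. The part of transcript length in it was not tested beyond these values. The main results were therefore also computed without wild-type replicate 1.

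**Figure D1:**
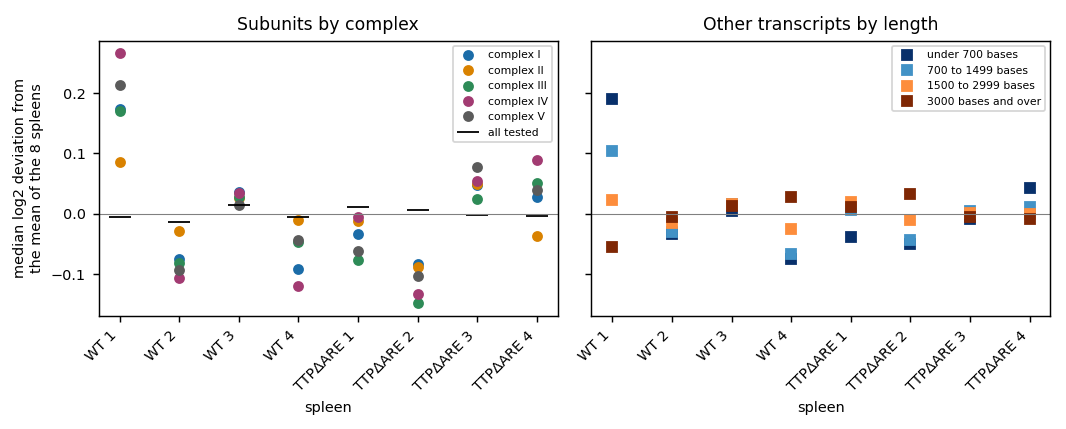
Median log2 deviation from the mean of the 8 spleens (vertical axis) in each spleen, for subunits by complex (left, circles, with a bar for all tested transcripts) and for other transcripts by length (right, squares). Wild-type replicate 1 is highest for all 5 complexes, between 0.086 and 0.266, and for other transcripts under 700 bases, at 0.190.

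The subunit transcripts stood at nearly the same level in both genotypes. By limma with adjustment over all 16608 transcripts, 0 of 78 tested members rose, 2 fell and 76 did not pass, where 2.01% of all tested transcripts rose and 1.99% fell; 3 members were higher and 5 lower at an unadjusted p under 0.05. The 2 that fell were Ndufs5, an accessory subunit of complex I, and Atp5sl. They are 2.56% of the members, close to the 1.99% among all transcripts. The median log2 change was 0.001 over the members and 0.003 over all tested transcripts, and 40 members had a positive value and 38 a negative one. Without wild-type replicate 1 the members' median was 0.057.

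The members' changes were also smaller in size than those of most transcripts. Their median absolute log2 change was 0.055 against 0.091 over all tested transcripts, and 76.9% of members against 53.6% lay within 0.1 of 0. These values include wild-type replicate 1 and were not computed without it. Without that library the median log2 change was 0.057 over the members and 0.007 over all tested transcripts. An unadjusted p under 0.05 was found for 8 members, 10.3%, against 21.1% of all tested transcripts. The groups did not overlap for 6 members, 7.69%, against 12.5% of all: TTPΔARE was lower for 5 members and higher for 1, where 5.99% of all tested transcripts were lower and 6.53% higher in this way. Among short abundant transcripts the same order was seen. Of 55 members with at least 10 FPKM and under 1500 bases, 81.8% lay within 0.1 of 0 and 7.27% had an unadjusted p under 0.05, against 55.1% and 18.9% of 769 other transcripts of that kind. The spread between spleens of a group was larger, with a median SD on the log2 scale of 0.141 for these members and 0.123 for the others. Over all 78 tested members it was 0.136, against 0.113 over all tested transcripts. A larger spread also lowers the share with a small p, so the shares of p-values do not measure the size of change alone.

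The 95% confidence interval of the log2 change states how large a difference each member allows. It lay within 1.5-fold in both directions for 77 of 78 members, and Cox6b2 was the exception. Among all tested transcripts it lay within 1.5-fold for 93.4%. The median interval reached 0.19 to either side of the estimate, so changes of a few percent were not detectable with 4 spleens a group.

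**Figure D2:**
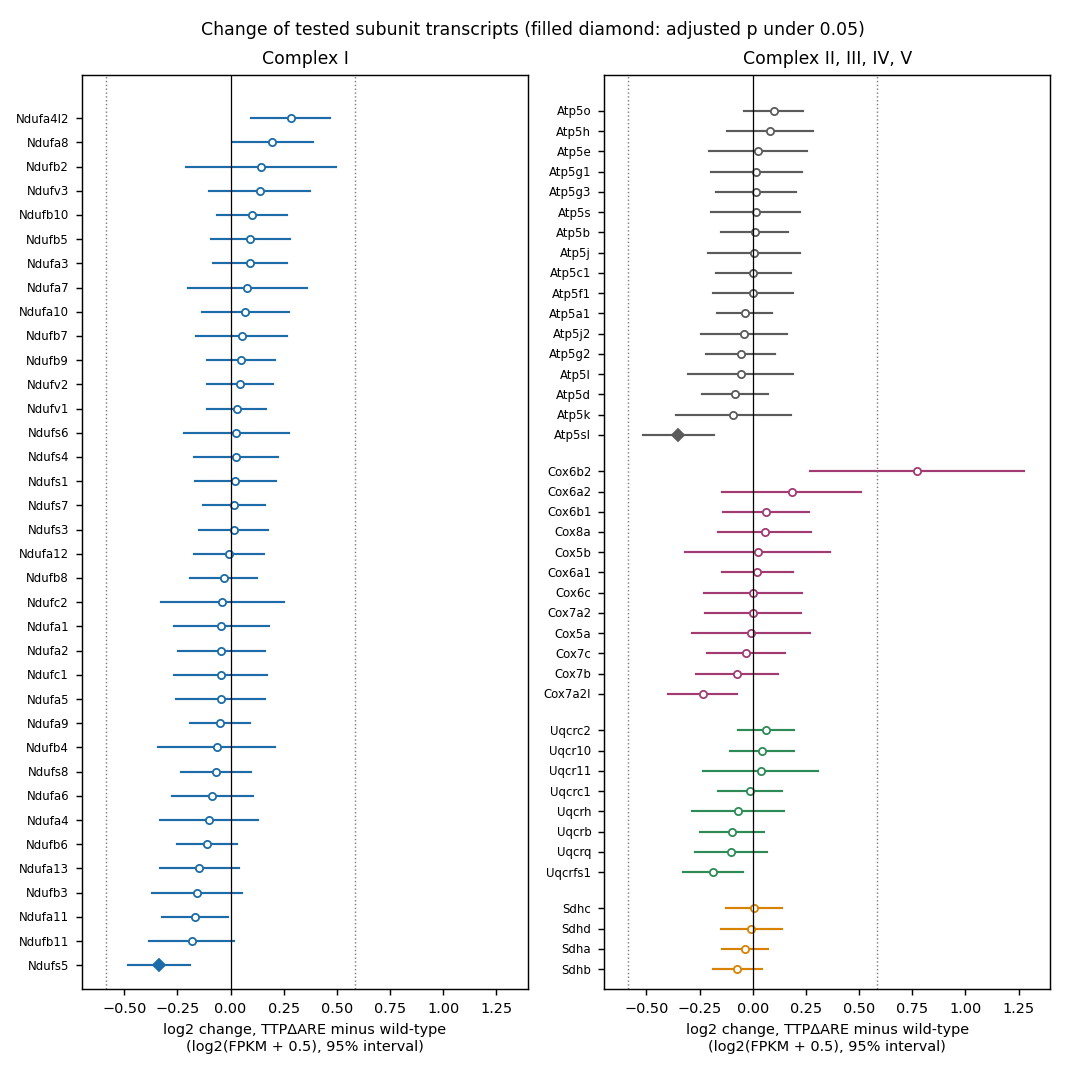
Log2 change of the tested members (1 of the 78 is not shown), TTPΔARE minus wild-type on the log2(FPKM + 0.5) scale (horizontal axis), with its 95% confidence interval, ordered within complexes; dotted lines mark 1.5-fold and filled diamonds an adjusted p under 0.05. Ndufs5 and Atp5sl are the filled diamonds, at -0.34 and -0.35, and the interval of Cox6b2 crosses the dotted line.

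Summed over its members, each complex had overlapping values in the 2 genotypes. Complex I summed to 756.2, 611.2, 654.2 and 598.0 FPKM in wild-type replicates 1 to 4 and to 628.2, 610.9, 659.1 and 658.1 FPKM in the TTPΔARE spleens. Wild-type replicate 1 was above all others. The ratio of the TTPΔARE to the wild-type mean was 0.976 for complex I, 0.977 for II, 0.972 for III, 0.991 for IV and 0.989 for V. Without wild-type replicate 1 these ratios were 1.029, 0.985, 1.011, 1.054 and 1.027, so for complexes I, III, IV and V the sign of the small difference turned on that library. All members together took 1.05 to 1.22% of the summed FPKM of a spleen.

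**Figure D3:**
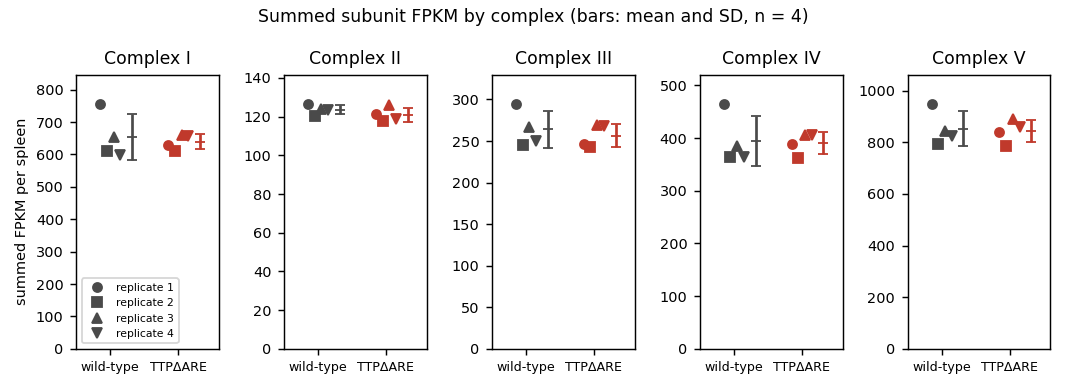
Summed FPKM of the members of each complex (vertical axes, from 0) in each spleen, with the mean and SD of 4 spleens a genotype. The groups overlap in all 5 panels, and wild-type replicate 1 (circle) is the highest spleen of every complex, at 756.2 FPKM for complex I.

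Complex I, the NADH dehydrogenase, had 37 tested members, of which 1 fell and 36 did not pass. The median log2 change was -0.008, and 0.061 without wild-type replicate 1. The 7 nuclear-encoded core subunits, which carry the flavin, the iron-sulfur clusters and the quinone site, all lay within 0.1 of 0 on the log2 scale. The 30 other symbols spanned -0.34 to 0.28, with 18 within 0.1 of 0. Their spread between spleens was also larger, with a median SD of 0.148 on the log2 scale against 0.101.

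Ndufs5, which lies on the intermembrane-space side of complex I, stood at 16.8, 15.2, 14.9 and 14.8 FPKM in the wild-type spleens and at 12.9, 11.1, 11.7 and 12.8 FPKM in the TTPΔARE spleens. All TTPΔARE values were below all wild-type values. The mean fell 1.26-fold on the log2(FPKM + 0.5) scale, with means of 15.4 ± 0.963 FPKM in wild-type and 12.1 ± 0.872 FPKM in TTPΔARE spleens (SD, n = 4 per genotype; log2 change -0.34 with SE 0.067, 95% interval -0.48 to -0.19, limma adjusted p = 0.0212). Without wild-type replicate 1 the log2 change was -0.30 (adjusted p = 0.0419). The call was lost without TTPΔARE replicate 3 (log2 -0.32, limma adjusted p = 0.0764), with the size of the change nearly the same. It was also lost with the mean erythroid level of each spleen as a covariate (log2 -0.31, limma adjusted p = 0.501), again at nearly the same size. That covariate fit called 0 of all 16608 transcripts, so the loss there is not particular to Ndufs5. The part of the higher erythroid level in the fall of Ndufs5 was otherwise not tested. Ndufs5 lies on chromosome 4 at 123712710 to 123718186 (GRCm38), and 319 bases of its 525-base transcript match another annotated gene, a pseudogene, at 99.4% identity, so a part of its reads may have been shared.

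Ndufa4 had the highest level of the symbols grouped here, 53.6 ± 9.35 FPKM in wild-type and 49.6 ± 3.28 FPKM in TTPΔARE spleens (log2 -0.10, adjusted p = 0.640). Its protein was first assigned to complex I and is now counted as a subunit of complex IV. Its paralog Ndufa4l2, known as a hypoxia-induced gene, stood at 1.07, 0.776, 0.970 and 0.977 FPKM in wild-type and 1.26, 1.36, 1.18 and 1.23 FPKM in TTPΔARE spleens. All 4 TTPΔARE spleens were above all wild-type spleens, but the log2 value of 0.28 (95% interval 0.10 to 0.47) did not pass (adjusted p = 0.0871). The level of Ndufa4l2 relative to Ndufa4 was 1.78 ± 0.188% in wild-type and 2.55 ± 0.286% in TTPΔARE spleens. These values rest on about 22.8 to 37.9 fragments per spleen, and Ndufa4l2 overlaps Shmt2 on the opposite strand, so without a known strand setting reads of the 2 genes cannot be told apart.

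Ndufa11 and Ndufa8 were the other members of complex I with an unadjusted p under 0.05. Ndufa11, a membrane-arm subunit, stood at 2.79, 2.42, 2.79 and 2.53 FPKM in wild-type and 2.38, 2.11, 2.40 and 2.26 FPKM in TTPΔARE spleens, without overlap (log2 -0.17, adjusted p = 0.202). Ndufa8, whose NRF1 core is shown above, stood at 16.8, 14.9, 14.4 and 16.8 FPKM in wild-type and 20.1, 15.6, 19.5 and 17.4 FPKM in TTPΔARE spleens, with overlap (log2 0.20, adjusted p = 0.218).

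Complex II, succinate dehydrogenase, varied least, and by limma 0 of its 4 members passed or had an unadjusted p under 0.05. The median SD between spleens of a group was 0.063 on the log2 scale, and the median 95% interval reached 0.12 to either side. Sdha, the flavoprotein, stood at 57.5 ± 1.23 FPKM in wild-type and 56.1 ± 1.21 FPKM in TTPΔARE (SD, n = 4 each; log2 -0.04, 95% interval -0.14 to 0.07). Sdhb, the iron-sulfur subunit, stood at 26.5 ± 0.949 and 25.2 ± 0.900 FPKM (log2 -0.07), and the membrane anchor Sdhc at 17.0 ± 0.943 and 17.0 ± 0.858 FPKM (log2 0.005). Its transcripts are longer than those of the other complexes, with a median of 2065.5 bases, and its deviation in wild-type replicate 1 was the smallest of the 5 complexes, 0.086.

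Complex III, the cytochrome bc1 complex, had 8 members tested, and by limma 0 passed, with 1 at an unadjusted p under 0.05. That 1 was Uqcrfs1, the Rieske iron-sulfur protein, at 16.2, 15.4, 14.9 and 15.3 FPKM in wild-type and 13.2, 12.2, 14.6 and 14.0 FPKM in TTPΔARE spleens. The groups did not overlap, by a margin of 14.9 against 14.6 FPKM, and the log2 value was -0.19 (95% interval -0.33 to -0.05, adjusted p = 0.127). Uqcrh, the hinge protein and the highest of the complex, stood at 68.6 ± 9.06 and 65.1 ± 6.39 FPKM (log2 -0.07). Among the scaffold subunits, Uqcrc2 stood at 41.6 ± 2.83 and 43.3 ± 1.04 FPKM (log2 0.06). The complex median was -0.041, and -0.002 without wild-type replicate 1.

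Complex IV, cytochrome c oxidase, had 15 members, of which 12 were tested and by limma 0 passed, with 2 at an unadjusted p under 0.05. The 9 widely expressed subunits Cox5a, Cox5b, Cox6a1, Cox6b1, Cox6c, Cox7a2, Cox7b, Cox7c and Cox8a all lay between -0.07 and 0.06. Cox6a1, the highest, stood at 58.2 ± 6.37 FPKM in wild-type and 58.8 ± 2.63 FPKM in TTPΔARE (SD, n = 4 each; log2 0.02, 95% interval -0.15 to 0.19). Cox8a stood at 40.4 ± 5.99 and 41.9 ± 3.99 FPKM (log2 0.06) and Cox7a2 at 18.6 ± 2.72 and 18.5 ± 2.02 FPKM (log2 0.001). The complex median was 0.012, and 0.105 without wild-type replicate 1.

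Cox7a2l, known as a supercomplex factor that joins complexes III and IV, had the lowest log2 value of complex IV. It stood at 54.8, 47.0, 45.7 and 47.0 FPKM in wild-type and 42.2, 39.0, 38.7 and 44.96 FPKM in TTPΔARE spleens, without overlap (log2 -0.24, 95% interval -0.40 to -0.08, adjusted p = 0.0980). A second transcript of the gene, with a mean of 18.9 FPKM, had a log2 value of -0.16 (adjusted p = 0.286). Without wild-type replicate 1, the highest spleen, the value of the main transcript was -0.18. It did not pass in any setting run, with limma adjusted p between 0.0941 and 0.792. Of its 1076 bases, 342 match an annotated pseudogene at 98.0% identity, so a part of its reads may have been shared. Supercomplexes were not measured here.

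The tissue-specific subunits of complex IV were at low levels. The heart and muscle forms Cox6a2, Cox7a1 and Cox8b had group means of at most 2.28, 0.170 and 0.041 FPKM, against 58.8, 18.6 and 41.9 FPKM for their widespread counterparts Cox6a1, Cox7a2 and Cox8a. Cox8b was listed at 0 in 6 of 8 spleens and Cox8c, a testis form, stood at 0.145 to 0.326 FPKM. Markers of striated muscle and brown fat were low too: the 8 found summed to 2.49 to 4.01 FPKM per spleen. Cox6a2 was 3.34 ± 0.709% of the level of Cox6a1 in wild-type and 3.85 ± 0.797% in TTPΔARE spleens (SD, n = 4 each), with a log2 value of 0.18 for Cox6a2 that did not pass (adjusted p = 0.529). It overlaps the integrin gene Itgad on the opposite strand.

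Cox6b2, a testis form of subunit VIb, had the largest value of all members. It stood at 1.22, 0.926, 2.23 and 1.01 FPKM in wild-type and 2.37, 1.75, 4.07 and 2.42 FPKM in TTPΔARE spleens. The groups overlapped, since wild-type replicate 3 lay above TTPΔARE replicate 2. The log2 value was 0.77 with a 95% interval of 0.27 to 1.28, and it did not pass (adjusted p = 0.0860), except without wild-type replicate 3 (log2 0.98, adjusted p = 0.0249). With the erythroid level as a covariate the log2 value was 0.02 (limma adjusted p = 0.991), in a fit that called 0 of all 16608 transcripts. That covariate, the mean log2 level of the erythroid markers, was 3.39, 3.33, 4.69 and 4.01 in the wild-type and 4.89, 4.51, 5.46 and 5.43 in the TTPΔARE spleens. Summed FPKM of the same markers ordered the spleens otherwise, with 6748 in wild-type replicate 3 against 9703 and 11382 in wild-type replicates 1 and 2. The part of erythroid cells in the values of Cox6b2 was not tested further. The 4 testis markers, all near 0, summed to 0.141 to 0.303 FPKM in wild-type and 0.342 to 0.583 FPKM in TTPΔARE spleens, without overlap, and their part was not tested. The counterpart Cox6b1 had a log2 value of 0.06. Cox6b2 rests on about 16.1 to 71.3 fragments per spleen.

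**Figure D4:**
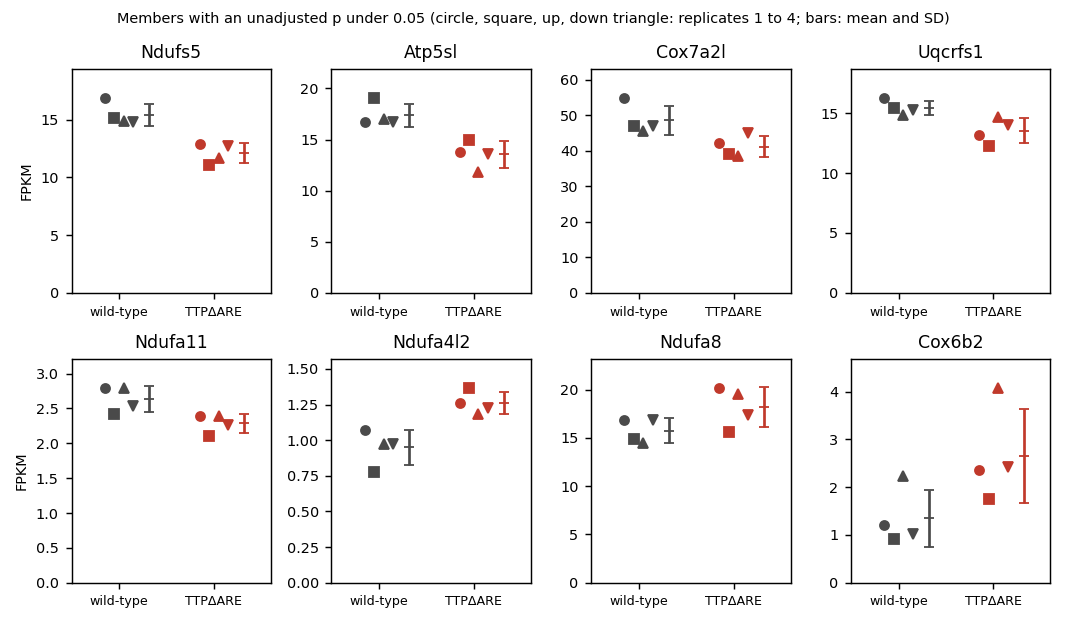
FPKM (vertical axes, from 0) in each spleen of the 8 members with an unadjusted p under 0.05, with the mean and SD of 4 spleens a genotype. Wild-type and TTPΔARE spleens do not overlap for Ndufs5, Atp5sl, Cox7a2l, Uqcrfs1, Ndufa11 and Ndufa4l2 and overlap for Ndufa8 and Cox6b2; only Ndufs5 and Atp5sl passed.

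Complex V, the ATP synthase, had the highest levels, with a median of 46.2 FPKM over its 17 members against 14.6 for complex I. The median log2 change of complex V was 0.002, and 0.053 without wild-type replicate 1. The catalytic β subunit Atp5b stood at 150.1 ± 3.89 FPKM in wild-type and 151.4 ± 13.8 FPKM in TTPΔARE (SD, n = 4 each; log2 0.01, 95% interval -0.15 to 0.17), and the α subunit Atp5a1 at 118.6 ± 5.06 and 115.5 ± 5.33 FPKM (log2 -0.04). These subunits are present in several copies per enzyme. The single-copy subunits of the F1 head, Atp5c1, Atp5d and Atp5e, had means of 38.9, 21.7 and 62.0 FPKM. All 5 F1 subunits lay between -0.08 and 0.02 on the log2 scale, and the 10 symbols of the membrane part and stalk between -0.09 and 0.10. Atp5o, the stalk subunit OSCP, was the highest of these changes, at 32.1 ± 0.801 and 34.5 ± 2.63 FPKM (log2 0.10, adjusted p = 0.406).

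Subunit c, which forms the rotor ring, is encoded by 3 genes that yield the same mature protein. Atp5g2 stood at 62.0 ± 5.82 FPKM in wild-type and 59.5 ± 3.49 FPKM in TTPΔARE, Atp5g3 at 55.1 ± 6.30 and 55.6 ± 4.27 FPKM, and Atp5g1 at 9.38 ± 1.07 and 9.50 ± 1.18 FPKM (SD, n = 4 each). Their log2 values were -0.06, 0.02 and 0.02. The order held in every spleen, since Atp5g3 was 84.8 to 96.6% of Atp5g2 and Atp5g1 13.9 to 18.2% of it. The share of Atp5g1 is that of its highest transcript alone. A second transcript of Atp5g1, with a mean of 4.78 FPKM (log2 0.10, limma adjusted p = 0.711), is not part of it. Atp5g1 and Atp5g2 each have 2 annotated near-identical copies, so the split of their reads is uncertain; no such copy was found for Atp5g3.

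**Figure D5:**
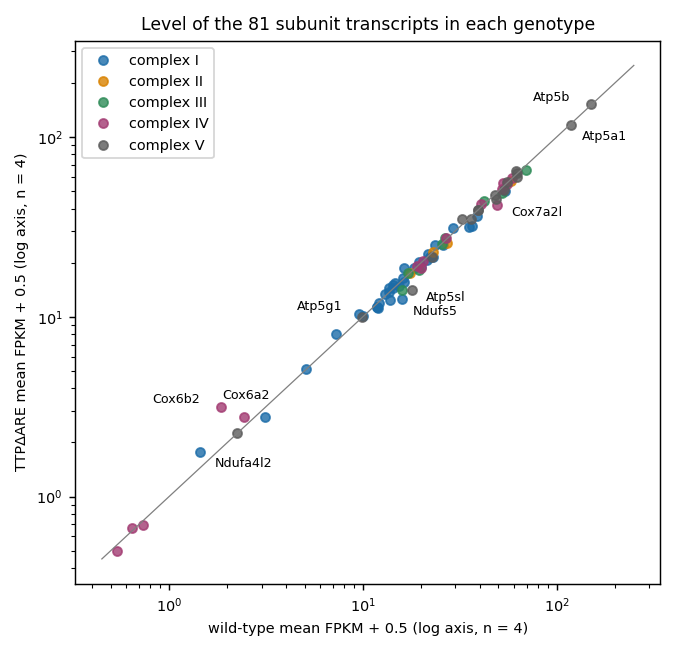
Mean FPKM + 0.5 of the 81 members, most of them unlabelled, in TTPΔARE (vertical log axis) against wild-type spleens (horizontal log axis, n = 4 each), with a line of equality and colours by complex. Members lie along the line from the tissue-specific Cox genes under 1 to Atp5b at 150.1 FPKM in wild-type, with Ndufs5 and Atp5sl below it and Cox6b2 above it.

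Atp5sl, the member of the Atp5 group that fell, is named Dmac2 in the current RefSeq annotation, and its protein is known from the assembly of the membrane arm of complex I rather than as a part of the ATP synthase. Atp5s, also counted here in complex V, is likewise renamed, to Dmac2l. Atp5sl stood at 16.7, 19.0, 17.0 and 16.7 FPKM in wild-type and 13.8, 14.9, 11.8 and 13.6 FPKM in TTPΔARE spleens. All TTPΔARE values were below all wild-type values. The fall was 1.27-fold on the log2(FPKM + 0.5) scale, with means of 17.4 ± 1.118 FPKM in wild-type and 13.5 ± 1.29 FPKM in TTPΔARE spleens (SD, n = 4 per genotype; log2 change -0.35 with SE 0.075, 95% interval -0.51 to -0.18, limma adjusted p = 0.0291). The call was lost when any 1 of 5 spleens was left out. Leaving out replicate 2 or 4 of the wild type gave adjusted p = 0.0647 and 0.0636 by limma. Leaving out replicate 1, 3 or 4 of the TTPΔARE group gave 0.0532, 0.0829 and 0.0778. It was lost as well with the erythroid covariate, where the log2 value was -0.20 (limma adjusted p = 0.725). That fit called 0 of all 16608 transcripts, so this loss is not particular to Atp5sl.

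Atp5sl lies on chromosome 7 at 25619414 to 25625550 (GRCm38), 2.75 Mb from Zfp36, the locus of the engineered allele. The members are spread over 19 chromosomes, with 9 on chromosome 7, and 3 lie within 10 Mb of Zfp36. The others within 10 Mb are Cox6b1 (log2 0.06) and Cox7a1, which was below the level tested. Of 273 tested transcripts within 10 Mb of Zfp36, 4 rose and 14 fell. Both directions together are 6.59%, against 3.94% of 16075 tested transcripts elsewhere. Over all tested transcripts 2.01% rose and 1.99% fell. The part of the position in the fall of Atp5sl was not tested.

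The members hold few of the AU-rich heptamers that TTP is known to bind. TATTTAT stood in the longest annotated 3′ UTR (GENCODE M21) of 7 of 78 tested members, 8.97%, against 29.8% of 11882 tested genes with a 3′ UTR. The members' 3′ UTRs are short, with a median of 280.5 bases against 1347.5, and per kilobase they held 0.253 heptamers against 0.259. The longest annotated 3′ UTR of a gene can exceed the transcript measured, as for Ndufb2 (4012 against 455 bases) and Ndufb8 (1643 against 680 bases). These densities therefore describe the annotation and not the transcripts measured. The 7 were Cox7a2, Ndufb5, Ndufb8, Ndufs4, Ndufv2, Sdhc and Uqcrc2, and neither Ndufs5 nor Atp5sl was among them. Their median log2 change was 0.025 against -0.008 for the members without the heptamer. Sites of 5 of them are shown because TTP is known to act through this motif. The heptamers are in capitals, and Ndufv2 has an overlapping pair. The Ndufb8 site stands at base 707 of its longest annotated 3′ UTR, whereas the Ndufb8 transcript measured here has 680 bases in all. That site comes from another annotated transcript and may be absent from the one measured. The windows lie at chr9:79755435-79755463 (Cox7a2, minus strand), chr19:44549489-44549517 (Ndufb8, minus strand), chr13:114288690-114288718 (Ndufs4, minus strand), chr17:66078861-66078889 (Ndufv2, minus strand) and chr7:120659301-120659329 (Uqcrc2, plus strand) in GRCm38. The site of Sdhc lies past the end of its RefSeq gene and that of Ndufb5 spans an exon junction, and neither is shown.
Cox7a2: ggggatcaaTATTTATtgatgtgtattaa
Ndufb8: cattgtccgTATTTATgaaataagggatg
Ndufs4: gctgtgcacTATTTATagtccatggataa
Ndufv2: ctttagctaTATTTATTTATtttgataca
Uqcrc2: gtcagcaagTATTTATtaaatgctttaag
The log2 changes of these 5 were 0.001 for Cox7a2, -0.03 for Ndufb8, an accessory subunit of complex I, 0.03 for Ndufs4, a complex I subunit known for its part in late assembly, 0.04 for Ndufv2, a core iron-sulfur subunit, and 0.06 for Uqcrc2, and none passed (limma adjusted p = 0.997, 0.847, 0.909, 0.775 and 0.603). Ndufb5, another accessory subunit, had a log2 value of 0.09 (adjusted p = 0.585).

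Of 6 tested subunits and carriers that the symbol rule leaves out, 0 passed by limma, with 1 at an unadjusted p under 0.05, and their median log2 change was 0.058 against 0.001 for the members. Cox4i1, the regulatory subunit of complex IV, stood at 70.6 ± 5.59 FPKM in wild-type and 69.6 ± 5.66 FPKM in TTPΔARE spleens (SD, n = 4 each; log2 -0.02), and cytochrome c1, Cyc1, at 21.7 ± 1.17 and 22.2 ± 1.37 FPKM (log2 0.03). Cycs, the mobile electron carrier cytochrome c, had a log2 value of 0.08 and Ndufab1, the acyl carrier subunit of complex I, one of -0.03. Atpif1, the inhibitor of the ATP synthase, stood at 33.4 ± 6.99 and 42.9 ± 7.65 FPKM (log2 0.36, adjusted p = 0.197) and was the 1 with an unadjusted p under 0.05. Usmg5, a small membrane subunit of the ATP synthase, stood at 30.4 ± 5.23 and 33.1 ± 1.88 FPKM (log2 0.13, adjusted p = 0.523). None of the symbols listed for subunits of mitochondrial DNA was matched, so these are not analysed here.

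Other mitochondrial gene lists had medians near 0 as well. By limma 0 of 38 assembly factors passed (4 at an unadjusted p under 0.05), with a median of 0.003, and the smallest p was that of Ndufaf2 (log2 0.23, adjusted p = 0.0777). Of 16 genes of the TCA cycle and pyruvate dehydrogenase 0 passed by limma (2 at an unadjusted p under 0.05), with a median of 0.016, and Idh3g, a subunit of isocitrate dehydrogenase, stood at -0.19 (adjusted p = 0.0664). Of 76 mitochondrial ribosomal proteins Mrps9 fell (log2 -0.29, limma adjusted p = 0.0470) and 75 did not pass, with a median of -0.017. In that list 5 had an unadjusted p under 0.05, and 1.99% of all tested transcripts fell. By limma 0 of 13 regulators of mitochondrial biogenesis passed (1 at an unadjusted p under 0.05, Tfb1m with log2 0.25), with a median of -0.013. Of 12 genes of protein import and the outer membrane 0 passed by limma (2 at an unadjusted p under 0.05), and the chaperonin Hspd1 had the smallest p (log2 0.32, adjusted p = 0.106), with a list median of -0.015.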

How the data were processed

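The authors sequenced total RNA of 8 spleens and deposited FPKM for each RefSeq transcript in each spleen. The submitters' processing notes name BWA and mm10. How fragments were counted, the annotation release, the strand setting and the handling of reads with several matches: not given in the sources used here. Groups came from the genotype labels, and replicates were numbered in accession order.

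The 16608 of 23517 transcripts that averaged 0.5 FPKM or more went into 1 limma fit (limma 3.58.1, R 4.3.3; variance trend, two-sided, 95% intervals) of log2(FPKM + 0.5). P-values were adjusted by Benjamini-Hochberg over all of them, with calls under 0.05. Folds use the same scale, which understates low transcripts. The step was tested on simulated data. P-values measure the spread between these spleens, each a separate sample by its label. Depth was estimated from values of at most 0.5 FPKM, of which 47.9 to 50.9% were whole fragments within 0.05 at the best depth, so counts were not rebuilt and no count model was used.

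Lists, complexes and medians are descriptions with no test. Erythroid, B cell, T cell, neutrophil and red pulp macrophage markers were listed: 0 of 10 T cell markers passed by limma (6 at an unadjusted p under 0.05), 2 of 10 neutrophil markers and 1 of 8 macrophage markers rose, and 2 of 10 B cell markers fell. The members and lists were chosen with earlier results of these data known. Named in each complex are the members with the highest mean, the smallest p and the largest change in each direction, Ndufa4, the subunit c genes and tissue-specific Cox genes; of other lists, those that pass or have the smallest p. Ndufa8, Ndufa11, Atp5a1, Atp5c1, Atp5d, Atp5e, Cox6b1, the members with a heptamer and the subunits outside the symbol rule were added after their values were seen. Of the members, 1 enters the counts, sums and medians but is not described singly here.

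Accessions gave coordinates from RefSeq (GRCm38.p6, the primary assembly of mm10) and transcripts and 3′ UTRs from GENCODE M21. Near-identical copies were searched with blastn 2.17.0 (at least 95% identity over at least 100 bases) and found for 34 of 81 members. Python 3.11.15 (pandas 2.3.3, numpy 2.4.6) made the tables and matplotlib 3.10.9 the plots. Alternatives were pseudocounts of 0.1 and 1, a filter at 1 FPKM or none, quantile normalization, median-of-ratios scaling, a fit without the variance trend, an erythroid covariate, 1 transcript per symbol and leaving out each spleen.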

Additional observations from a re-analysis of the deposited data

Results flagged for a closer look

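Each group of 4 spleens was examined for a spleen far from the other 3, in 58 groups of named members and complex sums, of which chance marks about 1 in 20. In all, 3 were marked. Cox7a2l stood at 54.8 FPKM in wild-type replicate 1 against 45.7 to 47.0 FPKM in the other wild-type spleens, and Cox8a at 49.4 against 37.1 to 37.7 FPKM. Both lie in the library in which short transcripts were high. Atp5sl stood at 19.0 FPKM in wild-type replicate 2 against 16.7 to 17.0 FPKM in the others, and without that spleen its log2 change was -0.31 (limma adjusted p = 0.0647).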

How the results depend on the processing

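Ndufs5 and Atp5sl were the members called by limma in 8 of the 9 processing alternatives. With the erythroid covariate 0 members fell (limma, with 2 at an unadjusted p under 0.05) and the median of complex III was -0.149; that fit called 0 of all 16608 transcripts. With 1 spleen left out, 0 to 2 members fell and 0 to 1 rose, the riser being Cox6b2 without wild-type replicate 3, and 0 were called without TTPΔARE replicate 3 (limma, with 7 at an unadjusted p under 0.05). The median over all members ranged from -0.045 to 0.057 with 1 spleen left out and from -0.047 to 0.011 in the processing alternatives. Intervals within 1.5-fold were found for 73 to 80 members. No paired analysis was possible because the labels give no replicate numbers or pairs. Precision is limited by 4 spleens a group, and for Ndufa4l2, Cox6b2, Cox6a2 and Ndufa11 by under 100 fragments a spleen.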
